A study of Mus musculus with 53 samples.

Results

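Distal enhancers that mouse embryonic stem cells (ESCs) carry in 2iLIF but not in NACL were examined by CUT&RUN, in which an antibody-tethered nuclease cuts out the DNA beneath a bound protein or histone mark. They were chosen by their own peaks. A 2iLIF enhancer was a merged H3K27ac region with peaks of both 2iLIF libraries that overlapped, by 1 bp or more, a merged H3K4me1 region with peaks of both 2iLIF libraries. Of 27880 such enhancers, those that overlapped no NACL enhancer and no nEnd enhancer, defined in the same way, and lay 1000 bp or more from every annotated transcription start site (TSS) were kept, which left 10136 (36.4%). These are called 2iLIF-only enhancers below. They were compared with 6609 shared distal enhancers, which met the same TSS rule and overlapped a NACL enhancer but no nEnd enhancer. No filter on low signal was applied, so all 10136 entered the shares of members, and shares of a subset give its number.

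All libraries came from SGGC cells, E14JU ESCs in which SOX2 carries GFP and GATA6 carries mCherry at the endogenous loci, as clones B9 and B12. 2iLIF is the defined naive medium with inhibitors of MEK and GSK3 and the cytokine LIF, NACL is a defined medium with Activin A, a GSK3 inhibitor and LIF, and nEnd cells are naive extra-embryonic endoderm. Cells grown in KnockOut Serum Replacement medium (KOSR) had been sorted into SOX2+ cells and into double positive (DP) cells that express both SOX2 and GATA6. The 2iLIF and NACL groups hold 2 libraries each of H3K27ac, H3K4me1 and SOX2, one per clone. The nEnd group holds 2 libraries each of H3K27ac, H3K4me1 and GATA6, and both its H3K4me1 libraries are from clone B9. Every KOSR library is from clone B12. KOSR SOX2+ cells have 3 SOX2 libraries (experiments A, A1 and B) and 2 of each mark, and KOSR DP cells have 3 SOX2 libraries, 3 GATA6 libraries and 1 of each mark.

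Enhancers are stretches of DNA away from promoters that transcription factors bind to raise the output of nearby genes. H3K4me1 marks enhancers whether or not they are active, and H3K27ac is added to them when they are active, so that H3K4me1 without H3K27ac is often called a primed state. SOX2, which binds DNA with OCT4, is a core pluripotency factor of the epiblast, and GATA6 is a driver of the primitive endoderm. Inhibition of MEK in 2iLIF blocks the ERK pathway, while Activin A in NACL signals through SMAD proteins.

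To show the DNA beneath SOX2 peaks, 200 bases around the 2iLIF SOX2 maximum are printed for 5 members, taken from 2 restricted sets. The first 2, near Gna14 and Epha3, were among the 3 with the highest mean SOX2 ranks of members with SOX2 peaks in both 2iLIF libraries and in neither NACL library. The other 3, near Sp5, Etv1 and Dusp6, were among the 4 with the highest mean SOX2 ranks of members with SOX2 peaks in both 2iLIF libraries whose nearest gene was a listed gene with 3 or more members. Sequences are from the RefSeq copy of GRCm38 (mm10), 5′ to 3′, and capitals mark exact matches, on either strand, to any of 12 motif strings spelled out with the motif counts.
Gna14 enhancer, chr19:16419096-16419295, plus strand: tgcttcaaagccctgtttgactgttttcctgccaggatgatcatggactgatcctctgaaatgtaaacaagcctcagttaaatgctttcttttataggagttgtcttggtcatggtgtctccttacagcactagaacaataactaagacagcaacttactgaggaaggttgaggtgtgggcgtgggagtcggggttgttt
Epha3 enhancer, chr16:63669495-63669694, plus strand: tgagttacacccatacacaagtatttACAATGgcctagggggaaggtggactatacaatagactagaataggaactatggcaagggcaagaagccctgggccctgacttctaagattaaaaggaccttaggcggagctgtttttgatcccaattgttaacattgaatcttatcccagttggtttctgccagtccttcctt
Sp5 enhancer, chr2:70340255-70340454, plus strand: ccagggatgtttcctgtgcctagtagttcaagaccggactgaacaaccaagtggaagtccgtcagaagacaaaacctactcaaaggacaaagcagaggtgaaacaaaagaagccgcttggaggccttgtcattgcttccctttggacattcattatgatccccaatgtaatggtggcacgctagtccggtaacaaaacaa
Etv1 enhancer, chr12:38729833-38730032, plus strand: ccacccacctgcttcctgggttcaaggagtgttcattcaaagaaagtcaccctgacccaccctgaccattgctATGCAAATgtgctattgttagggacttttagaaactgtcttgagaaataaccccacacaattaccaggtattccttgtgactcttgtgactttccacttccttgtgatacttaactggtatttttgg
Dusp6 enhancer, chr10:99353620-99353819, plus strand: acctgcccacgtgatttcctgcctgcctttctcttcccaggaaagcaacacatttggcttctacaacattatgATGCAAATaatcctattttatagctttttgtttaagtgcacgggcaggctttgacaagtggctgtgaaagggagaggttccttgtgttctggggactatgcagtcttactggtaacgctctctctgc
The Epha3 window matches the SOX string CATTGT on its minus strand at bases 27 to 32, which are repeat masked in the reference. The Etv1 and Dusp6 windows each hold the OCT string ATGCAAAT at bases 74 to 81, which is masked in the Etv1 window and unmasked in the Dusp6 window. The Gna14 and Sp5 windows hold none of the 12 strings. Of 200 bp windows around the SOX2 maxima of all 2iLIF SOX2 peaks, 34.1% (B9) and 36.3% (B12) hold the SOX string and 6.30% and 6.58% the OCT string. Around the H3K27ac maximum of all 20304 distal 2iLIF enhancers, which is not centred on SOX2, the shares are 11.9% and 1.95%.

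The label "absent from NACL" holds for the pair of marks and seldom for H3K27ac. These values were used to choose the members and are given as a description. An H3K27ac peak of both NACL libraries overlapped 6896 members (68.0%), a peak of 1 library overlapped 2172 (21.4%), and 1068 (10.5%) had none. Of the shared enhancers, 97.0% had a peak of both. For H3K4me1, 6117 members (60.3%) had a peak of neither NACL library, 3335 (32.9%) of 1 and 684 (6.75%) of both. The most frequent combination, H3K27ac in both NACL libraries and H3K4me1 in neither, was found at 4152 members (41.0%), and only 709 (6.99%) had no NACL peak of either mark. A further 104 members (1.03%) overlapped peaks of all 4 NACL histone libraries that formed no NACL enhancer there by the rule, the Dusp6 member printed above among them. Most members thus lacked H3K4me1 peaks of both NACL libraries rather than H3K27ac peaks. The NACL H3K4me1 lists hold 30698 peaks (B9) and 24700 (B12), against 33252 and 52599 in 2iLIF, whereas the H3K27ac lists of both media hold between 210904 and 401853 peaks. The 2iLIF H3K27ac peaks cover 359 Mb (B9) and 588 Mb (B12) of the genome, and the NACL H3K27ac peaks 426 and 434 Mb. The H3K4me1 peaks cover 88.9 Mb (B9) and 206 Mb (B12) in 2iLIF and 86.2 and 79.5 Mb in NACL. When the enhancers were defined anew from equal numbers of the strongest peaks per mark in 2iLIF and NACL, 5818 met the rule, of which 94.2% overlapped one of the 10136.

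**Figure D1:**
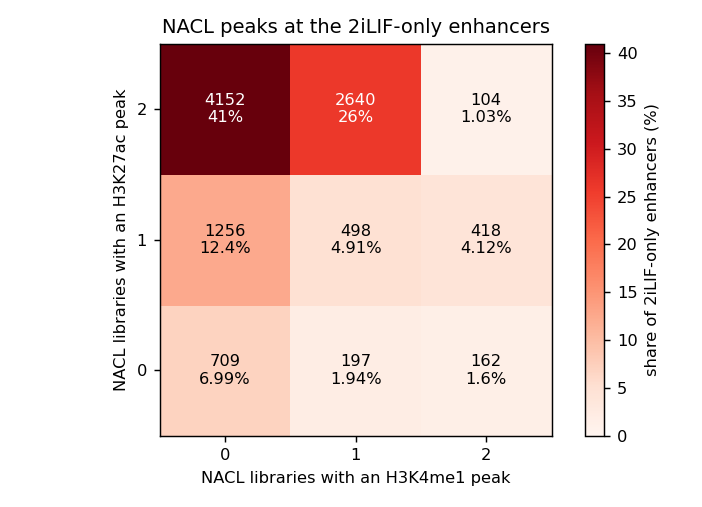
NACL peaks at the 10136 2iLIF-only enhancers. Each square gives the number and share (%) of enhancers by how many of the 2 NACL libraries have an H3K4me1 peak (horizontal) and an H3K27ac peak (vertical), with 4152 enhancers in the square for H3K27ac in both and H3K4me1 in neither.

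In nEnd, where the same rule applied, 90.2% of the members had no H3K27ac peak and 77.8% no H3K4me1 peak. Within 2iLIF the members were weaker and narrower than the shared enhancers. Their median within-library rank of H3K27ac signal, the percent of a library's peaks with less total signal, was 80.1 in B9 and 85.2 in B12, against 89.3 and 93.1 for shared enhancers. For H3K4me1, over enhancers with a peak, the medians were 44.5 and 72.6 against 75.5 and 87.4. The median width was 2470 bp against 3601 bp. At the edges of the rule, 509 members had a NACL enhancer less than 500 bp away, and 122 distal enhancers were kept out by an overlap with a NACL enhancer of less than 500 bp. The nearest member lay 1000 bp from a TSS and the farthest enhancer kept out lay at 996 bp, with 297 members in the 500 bp beyond the limit and 276 otherwise eligible enhancers in the 500 bp before it.

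Of the members, 54.0% lay between protein-coding genes, 43.2% in introns and 2.80% in exons, by their midpoint. The median distance to the nearest protein-coding TSS was 28.4 kb, against 20.2 kb for shared enhancers, and 21.9% against 13.7% lay over 100 kb away. Members were 80.9% of the distal 2iLIF enhancers on chromosome X (293 of 362) and 63.1% on chromosome 14 (422 of 669), but between 38.9% (chromosome 19) and 52.9% (chromosome 3) on the other autosomes. In the NACL H3K4me1 lists, 0.967% (B9) and 0.688% (B12) of peaks were on chromosome X, against 1.65% and 2.45% in 2iLIF. Chromosome 14 held between 3.91% and 4.53% of the peaks in every library of clone B9, against 1.65% to 3.07% in the others, all of clone B12. What these chromosome shares contribute to the member count was not tested. Without both chromosomes, an alternative added after the data were seen, the SOX2 and GATA6 results below kept their direction and their side of the threshold.

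SOX2 was measured in libraries that the choice of members did not use. A SOX2 peak was found at 18.7% of the members in 2iLIF B9 and 12.2% in 2iLIF B12, and at 29.5% in NACL B9 and 17.5% in NACL B12. The KOSR SOX2+ libraries had peaks at 15.6% (A), 16.1% (A1) and 10.6% (B), and the DP libraries at 4.81%, 5.05% and 1.70%. In each clone the share of members with a SOX2 peak was higher in NACL than in 2iLIF. The lists differ in length, with 13177 and 8203 SOX2 peaks in 2iLIF (B9, B12), 29623 and 17111 in NACL, 10513 to 20609 in SOX2+ and 1378 to 5320 in DP cells, so conditions were compared by the share of each library's peaks that lay at members.

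That share was 15.5% (B9) and 15.97% (B12) in 2iLIF and 11.3% and 11.5% in NACL, and the media did not overlap. The difference was 4.33 percentage points (15.7% ± 0.351 against 11.4% ± 0.131, SD, n = 2 each), with an exact permutation p = 0.333, the smallest that 2 against 2 can give (0.5 after Benjamini-Hochberg adjustment over 6 tests). The source label of the NACL B12 SOX2 library names IgG where its other labels name SOX2, and the difference without this library was 4.42 points. With clone as a replicate block the 2 differences were 4.18 (B9) and 4.49 (B12) points, and the exact p was 0.5. When every SOX2 library was cut to its 1378 strongest peaks, the difference was 0.544 points (exact permutation p = 0.667), and at members without NACL H3K27ac it was 0.114 points (exact permutation p = 0.667). In the SOX2+ libraries the share was 10.4% (A), 8.96% (A1) and 11.2% (B), lower than in both 2iLIF libraries by 5.51 points on average (exact permutation p = 0.2, the smallest possible; adjusted 0.4). At equal numbers of strongest peaks it was 3.52 points. With 2iLIF B12 alone, the clone of the SOX2+ libraries, the difference was 5.76 points. Both comparisons use the same 2iLIF libraries. The same share was also higher in 2iLIF over all distal 2iLIF enhancers, at 39.1% against 31.1% in NACL and 29.5% in SOX2+ cells, and over shared enhancers, at 16.1% against 13.6% and 12.6%. As a share of only the peaks at members or shared enhancers, members held 48.7% to 50.1% in 2iLIF, 44.9% to 46.2% in NACL and 44.3% to 45.1% in SOX2+ cells, so that 2iLIF exceeded NACL by 3.83 points (exact permutation p = 0.333) and SOX2+ by 4.70 points (exact permutation p = 0.2), both the smallest possible.

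SOX2 in DP cells was set against that in SOX2+ cells to ask where SOX2 sits once GATA6 is present. The DP shares were 10.7% (A), 10.2% (A1) and 12.8% (B), and the groups overlapped. The DP mean of 11.3% ± 1.40 (SD, n = 3) exceeded the SOX2+ mean of 10.2% ± 1.15 by 1.04 points (exact permutation p = 0.5, adjusted 0.6), and was higher in 3 of 3 experiments, with an exact p of 0.25 when experiment was a replicate block. A higher DP mean was not limited to members. Distal 2iLIF enhancers of every class, members included, held 34.7% ± 4.50 of DP SOX2 peaks against 29.5% ± 2.84 of SOX2+ peaks. Shared enhancers alone held 12.3% ± 1.81 against 12.6% ± 1.25, slightly lower for DP. Against the 7 SOX2 libraries of 2iLIF cultures, NACL cultures and SOX2+ sorts (12.1% ± 2.60), the DP difference at members was -0.866 points (exact permutation p = 0.7, adjusted 0.7). Leaving out 1 library moved it to between -0.225 points (without 2iLIF B12) and -1.66 points (without DP B). At equal numbers of strongest peaks, DP differed from SOX2+ by -1.48 points (exact permutation p = 0.1) and from the 7 libraries by -3.33 points (exact permutation p = 0.0167, the smallest possible, adjusted 0.05). The number taken, 1378, is the whole list of DP B, and the test took no account of medium, clone or experiment. The direction between DP and SOX2+ therefore turned with the number of peaks taken. As a share of the peaks at members or shared enhancers, members held 47.2% to 48.4% in DP and 44.3% to 45.1% in SOX2+ cells, without overlap, a difference of 3.16 points (exact permutation p = 0.1, the smallest possible). Without DP B, the DP and SOX2+ difference was 0.251 points, and without SOX2+ A1 it was 0.418 points.

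2iLIF-only enhancers carried SOX2 less often than shared distal enhancers in 10 of 10 libraries. The mean over libraries was 13.2% of members against 21.2% of shared enhancers, a difference of -8.02 points, between -1.22 points in DP B and -16.2 points in NACL B9. An exact sign-flip permutation test over the 10 libraries gave p = 0.00195, the smallest possible (adjusted 0.0117). The 10 libraries were scored over the same regions and are not independent. DP and SOX2+ libraries pair by experiment within clone B12, and 2iLIF and NACL libraries pair by clone. The test took each library as a separate unit, so its p does not allow for these pairs. The difference was -1.56 points at equal numbers of strongest peaks, -3.49 points in 500 bp windows and -18.2 points for members without NACL H3K27ac, each with an exact permutation p = 0.00195. Per kb of enhancer the ratio of members to shared enhancers lay between 0.778 and 0.978. In the stronger members (above the median H3K27ac rank) set against shared enhancers of every rank, the difference was -1.15 points (exact permutation p = 0.191). The 2 classes were therefore also compared within tertiles of H3K27ac rank over all distal 2iLIF enhancers, a comparison added after the data were seen.

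**Figure D2:**
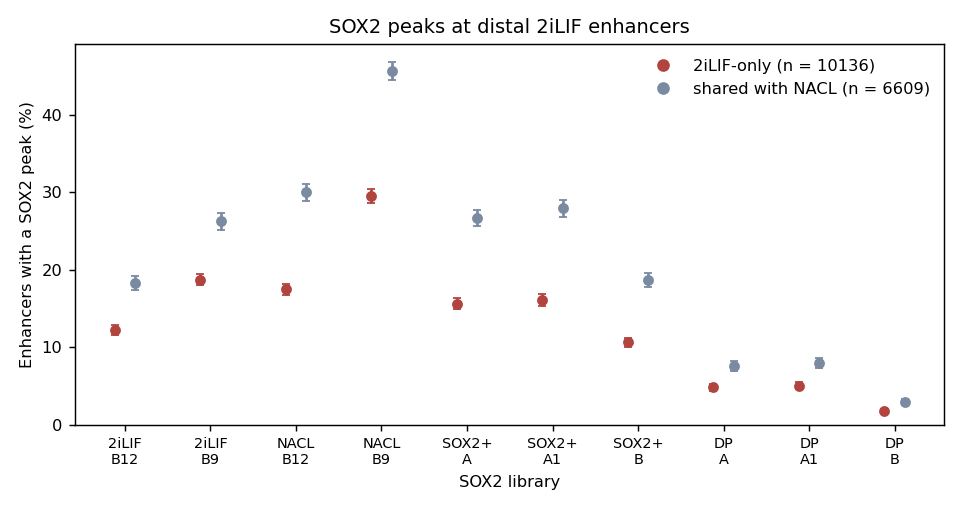
Share of enhancers (%) with a SOX2 peak in each of the 10 SOX2 libraries, for the 10136 2iLIF-only and the 6609 shared distal enhancers. Points are single libraries and bars are exact 95% binomial intervals of the share, which cover counting error only. The 2iLIF-only point lies below the shared point in every library, from 1.70% against 2.92% (DP B) to 29.5% against 45.7% (NACL B9).

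Within a tertile, the shares with 2iLIF SOX2 at members and at shared enhancers were close. In the weakest tertile (4323 members, 1529 shared) the shares were 7.82% against 7.78% in B9 and 4.16% against 3.99% in B12. In the strongest (2190 members, 2999 shared) they were 42.2% against 42.0% and 30.8% against 30.9%. Over all 3 tertiles the 2iLIF libraries differed by between -0.167 and 0.427 points. In contrast, the difference was -5.22 to -8.96 points for NACL SOX2 and -2.18 to -6.50 points for SOX2+ SOX2, negative in each of the 5 libraries and each tertile. In the strongest tertile NACL B9 had SOX2 at 54.1% of members and 63.0% of shared enhancers, and SOX2+ A at 33.7% and 39.8%. DP libraries differed by between -0.690 and 1.505 points. Whether the difference itself varies between media was not tested. Over all 10 libraries, again taken as separate units, the exact sign-flip permutation p was 0.0156, 0.0176 and 0.0586 from the weakest to the strongest tertile. The mean differences there were -2.22, -2.65 and -2.95 points. Median widths in the strongest tertile were still unequal, at 5348 bp for members and 6287 bp for shared enhancers.

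**Figure D3:**
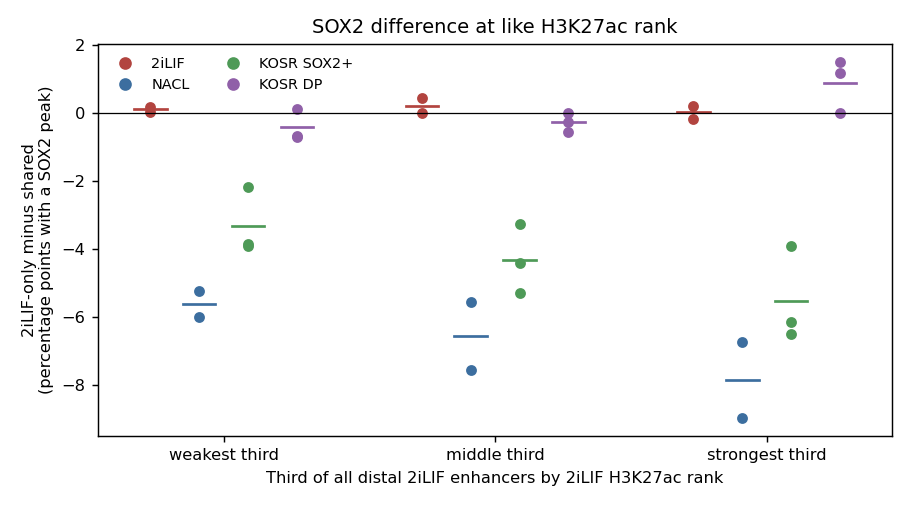
Difference between 2iLIF-only and shared distal enhancers in the share with a SOX2 peak (percentage points), within tertiles of 2iLIF H3K27ac rank. Each point is 1 library and each short line the mean of a group. The 2iLIF points lie within 0.427 points of 0, and all NACL and SOX2+ points lie below it.

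By replicate rules, SOX2 peaks of both 2iLIF libraries were found at 1177 members (11.6%, against 13.9% of all distal 2iLIF enhancers) and of both NACL libraries at 1708 (16.9%, against 21.7%). All 4 libraries of both media shared 1010 members (9.96%, against 12.5%). The set of all distal 2iLIF enhancers includes the members. SOX2 in both 2iLIF libraries and neither NACL library was found at 29 members (0.286%, against 0.212%) and at 9 shared enhancers (0.136%). The opposite, both NACL libraries and neither 2iLIF library, was found at 352 (3.47%, against 5.07%). No SOX2 peak in any of the 10 libraries was the state of 6710 members (66.2%, against 60.1%). Peaks of at least 2 of 3 libraries were found at 1390 members in SOX2+ cells (13.7%, against 18.3%) and at 377 in DP cells (3.72%, against 5.55%).

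Of the 1177 members with SOX2 in both 2iLIF libraries, 1010 had it in both NACL libraries, and of the 2832 such enhancers among all distal ones, 2548 did. Of the 1177, a SOX2 peak was found at 86.0% and 97.4% in the NACL libraries, at 64.1% to 75.9% in the SOX2+ libraries and at 14.4% to 32.8% in the DP libraries. Of the 8179 members with no 2iLIF SOX2 peak, 4.96% and 14.7% had one in the NACL libraries and 2.10% to 5.69% in the SOX2+ libraries. SOX2 was more frequent where H3K27ac was stronger. Among members the mean 2iLIF share rose from 5.24% in their own weakest H3K27ac tertile to 10.8% and 30.3%, and width rose with it, from a median of 1443 bp to 2410 and 4578 bp. Of the 1068 members with no NACL H3K27ac peak, 4.07% carried SOX2 in 2iLIF, against 19.5% of those with NACL H3K27ac in both libraries, as means of 2 libraries, and their median widths were 1489 and 3066 bp.

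GATA6 was rare at these enhancers and, in DP cells, at all distal 2iLIF enhancers. A peak was found at 6.02% (B12) and 4.57% (B9) of members in nEnd, and at 3.51% (A), 1.55% (A1) and 0.483% (B) in DP cells. Over all distal 2iLIF enhancers the shares were 14.7% and 11.7% in nEnd and 6.21%, 3.29% and 1.32% in DP cells. Both nEnd libraries had a GATA6 peak at 343 members (3.38%, against 10.3% of all distal 2iLIF enhancers, which include those shared with nEnd). As a share of each library's peaks, members held 4.59%, 4.42% and 3.88% in DP and 2.25% and 2.10% in nEnd, without overlap between the groups (4.30% ± 0.371, n = 3, against 2.17% ± 0.102, n = 2; difference 2.13 points, exact permutation p = 0.2, the smallest possible, adjusted 0.4). The DP share was also higher over all distal 2iLIF enhancers, at 19.6% against 12.99%, and over shared enhancers, at 5.66% against 2.19%. The members and the shared enhancers had been chosen to overlap no nEnd enhancer. As a share of the peaks at members or shared enhancers only, the difference was -6.72 points (exact permutation p = 0.2). SOX2 and GATA6 peaks, each in at least 2 of 3 DP libraries, met at 67 members (0.661%, against 1.55%).

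KOSR cells had not been used to choose the members, and their marks show what these regions look like in a further medium. In SOX2+ cells more members carried H3K4me1 than H3K27ac, and the H3K4me1 lists are longer, with 58085 (A) and 78354 (B) peaks against 13514 and 14722. In SOX2+ cells an H3K4me1 peak was found at 51.2% (A) and 58.8% (B) of members, against 84.0% and 88.2% of shared enhancers. An H3K27ac peak was found at 6.06% and 6.68%, against 21.3% and 21.7%. Both H3K4me1 libraries had a peak at 4791 members (47.3%, against 63% of all distal 2iLIF enhancers), and both H3K27ac libraries at 398 (3.93%, against 10.3%). H3K4me1 in both libraries with no H3K27ac in either, the primed combination, was found at 3960 members (39.1%, against 44.7%), and no peak of either mark at 3744 (36.9%, against 24.3%). Among shared enhancers these shares were 54.7% and 9.55%. With 2 libraries per mark no test was made.

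In the single DP library of each mark, H3K4me1 was found at 70.0% of members (against 80.4% of all distal 2iLIF enhancers) and H3K27ac at 28.2% (against 40.9%). The DP lists are longer, with 76260 H3K27ac peaks against 13514 and 14722 in SOX2+ cells. At equal numbers of strongest peaks, H3K27ac was found at 6.09% of members in DP and at 6.06% and 6.16% in SOX2+ cells, and H3K4me1 at 47.6% in DP and at 51.2% and 50.6%. The members lay below the shared enhancers in every tertile of 2iLIF H3K27ac rank. In the strongest tertile SOX2+ H3K27ac was found at 21.2% (A) and 22.7% (B) of members, against 37.4% and 37.8% of shared enhancers, and in the weakest at 0.902% and 0.833%, against 4.71% and 3.92%. Members without a NACL H3K27ac peak seldom had one in SOX2+ cells, at a mean of 0.187%, and H3K4me1 at 28.6%, against 9.09% and 63.2% where both NACL libraries had H3K27ac, which are the wider regions described above.

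**Figure D4:**
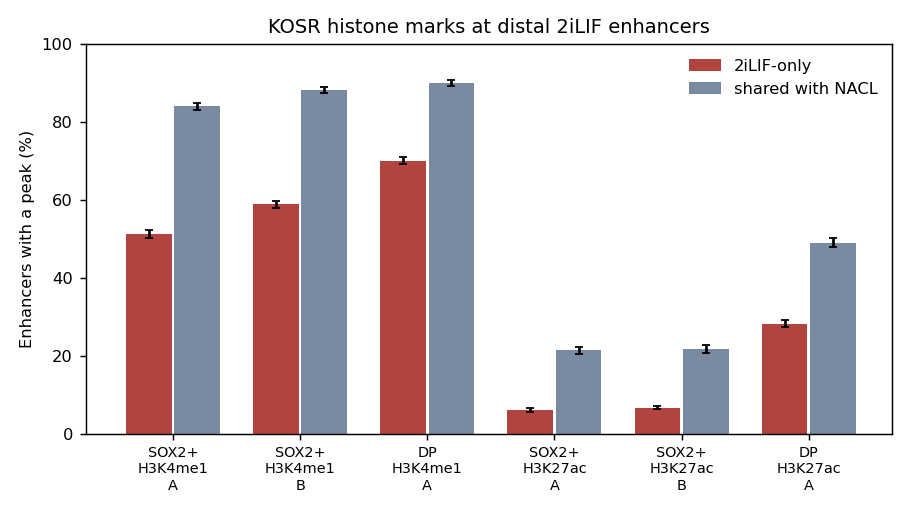
Share of 2iLIF-only and shared distal enhancers (%) with an H3K4me1 or H3K27ac peak in each KOSR library of sorted SOX2+ or DP cells. Bars are single libraries with exact 95% binomial intervals for counting error only. The 2iLIF-only bar is lower in all 6 libraries, with H3K27ac at 6.06% and 6.68% in the SOX2+ libraries.

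The members lay nearest to 4609 protein-coding genes, and for 2347 of these to a single member. Of these genes, 1910 were also nearest to a shared distal enhancer, which is 41.4% of the genes of the members and 57.6% of the 3315 genes of the shared enhancers. The 15 genes with most members had a median span of 608 kb, against 17.4 kb for all protein-coding genes. Tenm4, a teneurin cell adhesion gene on chromosome 7, was nearest to 35 members and 8 shared enhancers, with 27 of the 35 in introns. Its paralog Tenm3 had 27 members, and a run of 12 members with gaps of under 10 kb spanned 59.5 kb there. Glis3, a Krüppel-like zinc finger gene, had 19 members, of which 4 carried SOX2 in both 2iLIF libraries (11.6% of all members) and 1 carried H3K4me1 in both SOX2+ libraries (47.3% of all members). Diaph2, a formin gene on chromosome X, had 16 members and 1 shared enhancer. H3K27ac in DP cells was found at 9 of the 16, against 28.2% of all members and 40.9% of all distal 2iLIF enhancers. Sox9, which encodes a SOX factor of later lineages, was nearest to 15 members and no shared enhancer, at a median of 313 kb from its TSS. None of the 15 had SOX2 peaks in both 2iLIF, both NACL or at least 2 SOX2+ libraries, against 11.6%, 16.9% and 13.7% of all members. Rora, a nuclear receptor gene, had 15 members, all intronic, 12 of them in a run of 42.3 kb. Further genes were Magi1 (20), Auts2 and Plcb4 (17 each), Cntn5 and Rbfox1 (16 each), Cd47 and Tbl1xr1 (15 each) and Arl15 (14).

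**Figure D5:**
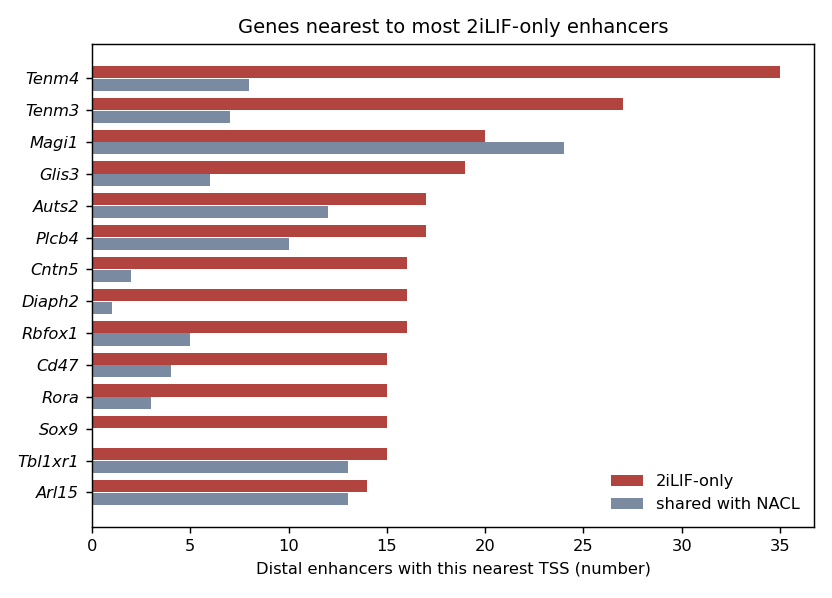
Number of 2iLIF-only and of shared distal enhancers with their nearest protein-coding TSS at each of 14 of the 15 genes with most 2iLIF-only enhancers. Tenm4 leads with 35 against 8, Magi1 has more shared (24) than 2iLIF-only (20) enhancers, and Sox9 has 15 and none.

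Genes of the pluripotency network held a small part of the members. The 25 naive pluripotency genes were nearest to 58 members (0.572%), spread over 14 genes, and to 47 shared enhancers (0.711%). Of the 58, 7 carried SOX2 in both 2iLIF libraries, 33 carried H3K4me1 and 3 carried H3K27ac in both SOX2+ libraries, against 11.6%, 47.3% and 3.93% of all members. These shares of all members apply to every count of the same marks near a single gene below, which rest on few regions. Sox2 had 10 members, at a median of 109 kb from its TSS, of which 7 carried H3K4me1 and none H3K27ac in both SOX2+ libraries. Nr5a2, an orphan nuclear receptor gene of the ground state, had 8 members, of which 3 carried SOX2 in both 2iLIF libraries. H3K27ac in the DP library was found at 7 of the 8, against 28.2% of all members and 40.9% of all distal 2iLIF enhancers. Esrrb, another orphan nuclear receptor gene, had 6 members, all in its introns, with no SOX2 peak in any library and no H3K27ac peak in SOX2+ or DP cells. Of all members, 66.2% likewise had no SOX2 peak in any library, and only 28.2% had H3K27ac in the DP library. All 3 members of this list with H3K27ac in both SOX2+ libraries were near Zfp42 (Rex1), a marker of naive cells, which had 5 members. Prdm14, Klf5 and Dppa4, genes of naive cells, had 6 members each, and Fbxo15 had 3.

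Genes of signalling were described from lists chosen with earlier results known, and counts of members stand beside those of shared enhancers. The 27 ERK response genes, the arm that 2iLIF inhibits, were nearest to 35 members (0.345%) and 46 shared enhancers (0.696%). Spred2, a feedback inhibitor, had 6 members and 5 of them carried H3K4me1 in both SOX2+ libraries (47.3% of all members), while Etv1, an ETS factor gene, had 4. Myc had 4 members against 15 shared enhancers, and Ccnd1, which encodes cyclin D1, had 4 against 1. The phosphatase gene Dusp6, the feedback inhibitor gene Spry2 and Jun had 3 members each. The 21 Wnt and TCF genes were nearest to 38 members (0.375%) and 21 shared enhancers (0.318%). Tcf7l1, the TCF repressor of the naive network, had 8 members and 2 shared enhancers, and 3 of the 8 carried H3K27ac in both SOX2+ libraries. Sp5, a direct target of Wnt signalling, had 7 members and Tcf7l2 had 5, with H3K4me1 in both SOX2+ libraries at 3 and 4 of them. Ctnnb1, which encodes beta-catenin, the receptor gene Fzd7 and the feedback inhibitor gene Axin2 had 3 each. The 20 Nodal and Activin genes, the arm that NACL stimulates, had 12 members (0.118%) and 25 shared enhancers (0.378%), with Smad3 at 4 and Pcsk6 at 3. For LIF and STAT3 the counts were 13 (0.128%) and 14 (0.212%), with Lifr, Il6st and Gab1 at 3 members each and none of them nearest to a shared enhancer. The FGF ligands and receptors had 2 (0.0197%) and 6 (0.0908%).

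Genes of other lineages had few members. The 21 formative and primed epiblast genes were nearest to 13 members (0.128%) and 20 shared enhancers (0.303%), with Sox4 at 6 and Foxd3 at 4. The 12 genes of DNA methylation had 13 (0.128%) and 12 (0.182%), led by Prdm14 with 6 and Tet2 with 5. The 17 germline and 2-cell genes had 20 (0.197%) and 15 (0.227%), and Prdm1, which encodes BLIMP1, alone had 13 of the 20. Trophoblast genes had 14 (0.138%) and 9 (0.136%), with Gata3 and Tfap2c at 4 members each and Tfap2a at 3. Neural genes had 10 (0.0987%) and 5 (0.0757%). Primitive endoderm genes had 7 (0.0691%) and 8 (0.121%), with Dkk1, a Wnt inhibitor, at 3 members. When every gene with a TSS within 50 kb was counted in place of the nearest, the counts of members moved by over 1.5 times for 6 of the 12 lists. They were then 14 for ERK response, 13 for germline and 2-cell, 9 for trophoblast and 4 for neural genes, all lower, and 21 for Nodal and Activin and 8 for FGF, both higher, so these counts depend on how genes are assigned. For Wnt and TCF genes the counts were then 34 members and 25 shared enhancers, and for trophoblast genes 9 and 9, so that the share of both lists was lower among members than among shared enhancers.

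The 10 members with the highest mean H3K27ac rank in 2iLIF were 10279 to 21405 bp wide and had H3K27ac in other conditions too. H3K27ac was found in both NACL libraries at 10 of 10, in both SOX2+ libraries at 7 and in the DP library at 10, against 68.0%, 3.93% and 28.2% of all members, while NACL H3K4me1 was found in neither library at 4 and in 1 library at 6. SOX2 peaks of both 2iLIF libraries lay at 8 of them, against 11.6% of all members. The strongest, 40.5 kb from Etv1, is an 18052 bp region at chr12:38720854-38738905. Its H3K27ac rank was 99.9 in both 2iLIF libraries, 99.7 and 99.3 in NACL (B9, B12), 89.3 and 96.9 in SOX2+ (A, B) and 99.4 in DP, and its SOX2 rank lay between 43.3 and 92.8 in 10 of 10 SOX2 libraries. Its H3K4me1 rank was 75.3 (B9) and 52.1 (B12) in 2iLIF, with no peak in either NACL library. The others were nearest to Sntg1, Car8, Il7, Gm281, Mme, Nkain3, Pudp, 2610301B20Rik and Rarb, the last a retinoic acid receptor gene.

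The 29 members with SOX2 in both 2iLIF libraries and neither NACL library were chosen for lacking NACL SOX2, and their share stands beside those of all distal and shared enhancers above. H3K27ac peaks of both SOX2+ libraries lay at none of the 29, against 3.93% of all members, a share too small to set 29 regions apart. The DP library had H3K27ac at 9 of the 29, against 28.2% of all members. Their 10 strongest by SOX2 rank included those nearest to Gna14, Epha3, Nuak1, Zc3h13, Rtp1, Leprot, D16Ertd472e, Lingo2 and Gsto1. The Gna14 member, 15.2 kb from the gene of a G protein subunit, had SOX2 ranks of 84.3 (B9) and 77.5 (B12) in 2iLIF and no SOX2 peak in the other 8 libraries. The Epha3 member, in an intron of this ephrin receptor gene, had SOX2 ranks of 66.2 and 69.5 in 2iLIF, 48.8 in SOX2+ A, and 84.2 and 62.5 in DP A and A1. It also carried GATA6 in both nEnd libraries, with ranks of 80.9 (B9) and 85.4 (B12), and in DP A and A1. Ranks are within libraries whose peak lists differ in length, so they are not compared between conditions. The Sp5 member had SOX2 ranks of 97.5 (B9) and 95.4 (B12) with 2iLIF, and of 95.2 and 89.9 with NACL. They were 38.6, 68.4 and 18.3 in SOX2+ cells, and there was no peak in DP. At the Dusp6 member, near an ERK phosphatase gene, the SOX2 rank was 97.5 and 70.4 for 2iLIF, 97.3 and 87.4 for NACL, and 69.5, 88.1 and 64.9 for SOX2+ cells, with 1 DP peak at 25.7.

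Sequence composition is given as a description. Each string was looked for in either orientation within 500 bp centred on the highest 2iLIF H3K27ac maximum. Strings of pluripotency factors were SOX CATTGT, found in 28.4% of members, 26.6% of shared and 27.4% of all distal 2iLIF enhancers, OCT ATGCAAAT (4.78%, 4.51% and 4.40%), ESRRB TCAAGGTCA (3.17%, 2.95% and 3.05%), KLF CCACACCC (6.45%, 6.81% and 6.78%) and NANOG GCCATTA (4.67%, 4.72% and 4.62%). Strings of signalling effectors were TCF CTTTGAT (10.7%, 9.96% and 10.3%), STAT TTCCNGGAA (2.10%, 1.94% and 2.10%), AP-1 TGANTCA (17.5%, 17.1% and 17.5%), ETS CCGGAAGT (0.691%, 0.908% and 0.744%), FOXH1 AATCCACA (2.15%, 2.39% and 2.23%) and TEAD ACATTCC (8.60%, 7.99% and 8.40%). The string AGATAA, which GATA factors bind, was found in 26.9%, 24.3% and 25.98%. Median GC content was 44.6% in members and 45.6% in shared windows. Of ESRRB matches in members 51.7% were wholly repeat masked, against 13.5% for SOX. Members with SOX2 in both 2iLIF libraries held the SOX string in 37.4% of windows, the others in 27.2%. Within 200 bp of the 2iLIF SOX2 maxima at members, the SOX string was found at 33.9% (B9) and 37.3% (B12) of peaks, against 34.1% and 36.3% of all peaks of these libraries.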

How the data were processed

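The authors trimmed CUT&RUN reads with cutadapt 1.18, aligned them with Bowtie2 2.3.4.1 and processed them with SAMtools 1.9, Picard 2.9.1, bedtools 2.27.1 and deepTools 3.2.0 on GRCm38 (mm10), as their processing notes list. Peaks were called per library with SEACR against IgG. The methods name the stringent setting for histone marks, whereas the lists used here are labelled relaxed. The deposited lists give each peak's total and maximum signal, a coverage sum, but do not state how libraries were scaled, so signal was compared only as a rank within a library. Read depth is unknown, and peak number stands in its place.

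Python 3.11.15, NumPy 2.4.6, SciPy 1.17.1 and pysam 0.24.0 were used with GENCODE M21. Differences between groups of libraries were tested with two-sided exact permutation tests, with 6 tests adjusted by the Benjamini-Hochberg method, and scripts were tested on simulated data. Members, gene lists and motif strings were chosen with earlier results of these data known. Named genes were the 15 with most members, those nearest to the 10 members with the highest mean H3K27ac rank and to the 10 with the highest mean SOX2 rank among the 29 with 2iLIF but no NACL SOX2, and listed genes with 3 or more members. Clone (2iLIF and NACL) or KOSR experiment label pairs libraries across groups, and both clones and all 3 experiments had differences of 1 sign. KOSR libraries are from 1 clone, so their spread may be technical. Binomial intervals (95%) cover counting error only. 18 IgG samples were not used here, and 2 libraries were assigned to no group. A gene and a sequence that meet these rules are not reported here.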

Additional observations from a re-analysis of the deposited data

Results flagged for a closer look

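A pair of histone libraries of KOSR experiment B carry labels that name 2 different sorted populations and were kept out of every comparison. The H3K27ac library had a peak at 10.3% of the 2iLIF-only enhancers and the H3K4me1 library at 64.4%. Beside them, the assigned SOX2+ libraries had 6.06% and 6.68% for H3K27ac and 51.2% and 58.8% for H3K4me1, and the DP libraries had 28.2% and 70.0%.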

How the results depend on the processing

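The number of 2iLIF-only enhancers depended on the peak lists. It was 26580 with a peak in any library of a mark, 5459 with the stronger 50% of each histone list, 5818 at equal peak numbers, 1068 without any NACL H3K27ac peak and 709 without any NACL peak. Leaving out 1 library per mark gave 8465 to 33925, the latter without 2iLIF B9. At members without NACL H3K27ac, the SOX2 difference was 0.114 between 2iLIF and NACL and 0.206 between 2iLIF and SOX2+. The SOX2 difference between DP and SOX2+ became -1.48 at equal peak numbers and -0.0847 at members without NACL H3K27ac. The difference of DP from the 7 other libraries became -3.33 (exact permutation p = 0.0167) and -0.170 (exact permutation p = 0.0167) in the same settings, 0.298 in stronger members, 1.57 among peaks at members or shared enhancers and 0.0465 with enhancers defined at equal peak numbers. The SOX2 difference from shared enhancers (-8.02) was -1.56 at equal peak numbers, -3.49 in 500 bp windows, -18.2 at members without NACL H3K27ac, -1.15 in stronger members (exact permutation p = 0.191) and -2.95 in the strongest tertile (exact permutation p = 0.0586). The GATA6 difference was -6.72 among peaks at members or shared enhancers. In 500 bp windows the differences in share of peaks kept their direction but were smaller, at 2.54 for 2iLIF and NACL, 3.57 for 2iLIF and SOX2+, 0.477 for DP and SOX2+ and 1.08 for GATA6. The cause was not tested. With a replicate block the differences stayed at 4.33 for clone and 1.04 for experiment, and no call changed. H3K27ac in SOX2+ cells (mean 6.37%) was 3.93% with both libraries required, 2.93% with the stronger 50% of peaks, 5.50% in 500 bp windows, 8.52% with enhancers defined at equal peak numbers, and 0.867%, 3.51% and 21.96% by tertile. For H3K4me1 (mean 55.0%) these were 47.3%, 35.8%, 48.0%, 60.8%, and 42.1% and 76.6% in the weakest and strongest tertiles. Tertiles and the definition at equal peak numbers were chosen after seeing the data. Read depth is unknown, and a missing peak is not absence of binding or of a mark. Comparisons of 2 or 3 libraries a group could not pass the threshold of the exact test.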
